A study of Mus musculus with 20 samples.

Results

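Tuft cells are rare chemosensory cells of the gut epithelium. They sense luminal metabolites and parasites through receptors and a signalling chain shared with taste cells, and they release the cytokine IL-25, lipid mediators and acetylcholine towards immune and nerve cells. In the small intestine they are best known for the succinate and IL-25 circuit, in which IL-25 activates group 2 innate lymphoid cells, whose IL-13 in turn drives the epithelium to make more tuft and goblet cells. The genes followed here are 9 genes in common use as markers or effectors of this cell type, Dclk1, Trpm5, Pou2f3, Il25, Gfi1b, Sucnr1, Gnat3, Avil and Il17rb, taken by name from a table of 35204 genes. The set was chosen with earlier results of these data known, so its counts beside shares of all genes are a description. Of these 9 genes, 8 passed the low-count filter (0.5 CPM, counts scaled to library size, reached by at least 1 mouse) and were among the 16306 genes tested. Il25 did not pass.

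RNA-seq was performed on small intestinal ileum of 20 female C57Bl6 mice, in 4 groups of 5. Mice 7 weeks old at the start of feeding were given control diet (CD) or tryptophan-deficient diet (TDD) for 3 weeks, and were either specific pathogen free and untreated (SPF, the CD and TDD groups) or given ampicillin, vancomycin, gentamycin, metronidazole and neomycin to remove the microbiota (ABX, the CD+ABX and TDD+ABX groups). All 4 groups shared the strain and the sex, the study's methods describe the same site near the cecum for every group, and no group carried a genetic change. The study's methods also describe sucrose in the antibiotic water, without saying whether untreated mice received it. Effects of the drugs, the sucrose and the loss of microbiota cannot be told apart here. Each library held RNA of a whole piece of gut wall, so fewer cells of a type and less RNA per cell cannot be told apart. Total estimated counts ran from 36676963 to 58662617 per mouse.

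The tissue label was checked against ileal markers. Fabp6, the ileal bile acid-binding protein, lay at 0.319 to 2.42 CPM in CD and 0.238 to 3.91 CPM in TDD, against 2.65 to 144 CPM in CD+ABX and 3.34 to 40.8 CPM in TDD+ABX. Slc10a2, the ileal bile acid uptake transporter, ran from 1.38 to 8.80 CPM over the 10 SPF mice and from 13.2 to 86.1 CPM over the 10 ABX-treated mice. Lct, the brush border lactase that is highest in the jejunum, was at 1470 to 3125 CPM over all 20 mice. Fabp6 was thus close to the filter level in most SPF mice, both ileal markers were higher in ABX-treated mice on each diet (Fabp6 by 5.14 ± 1.10 on CD and 3.92 ± 1.06 on TDD, log2, SE), and the part of this difference in the results on ABX that follow was not tested. Whether the site sampled differed between ABX-treated and SPF mice was not tested either.

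The members cover the steps of tuft cell identity and signalling. Pou2f3 (chr9:43123939-43210369, minus strand) encodes the octamer-binding transcription factor without which tuft cells do not form, and Gfi1b (chr2:28609450-28621982, minus strand) encodes a zinc finger repressor that blood precursors also use. Trpm5 (chr7:143069153-143094642, minus strand) encodes the calcium-activated cation channel at the end of the taste cascade, and Gnat3 (chr5:17962549-18019834, plus strand) encodes gustducin, the G protein alpha subunit at its start. Sucnr1 (chr3:60081869-60087566, plus strand) encodes the succinate receptor, Il17rb (chr14:29996135-30008896, minus strand) encodes a subunit of the IL-25 receptor, and Il25 (chr14:54932695-54935837, plus strand) encodes the cytokine itself. Dclk1 (chr3:55242364-55539068, plus strand) encodes a microtubule-associated kinase, and Avil (chr10:127000709-127020994, plus strand) encodes advillin, an actin-bundling protein of the villin family. Enteric neurons also hold Dclk1 and Avil RNA. Coordinates are those of GENCODE on GRCm38. Trpm5, Avil and Il17rb each overlap a gene on the opposite strand (Tssc4, Tsfm and Actr8), Dclk1 overlaps several small genes on either strand, and strand use in the quantification is not given in the sources used here.

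RefSeq promoter windows (GRCm38.p6, 250 bases before to 50 after the start) were found for 7 of the 9 genes, with 2 windows for Dclk1. Stretches of 5 windows are printed as the 100 bases before the start, read on the gene's own strand: those of Trpm5 and Avil, which were separated between ABX-treated and SPF mice on both diets, both starts of Dclk1, whose transcripts are described below, and that of Sucnr1, which holds the octamer searched for.
Trpm5, chr7:143094643-143094742, minus strand: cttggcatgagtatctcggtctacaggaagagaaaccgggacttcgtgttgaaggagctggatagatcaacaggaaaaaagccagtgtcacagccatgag
Avil, chr10:127000609-127000708, plus strand: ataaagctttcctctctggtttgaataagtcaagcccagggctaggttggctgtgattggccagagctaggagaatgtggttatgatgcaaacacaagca
Dclk1 distal start, chr3:55242264-55242363, plus strand: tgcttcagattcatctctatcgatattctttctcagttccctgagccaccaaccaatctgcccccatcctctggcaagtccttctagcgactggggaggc
Dclk1 internal start, chr3:55461628-55461727, plus strand: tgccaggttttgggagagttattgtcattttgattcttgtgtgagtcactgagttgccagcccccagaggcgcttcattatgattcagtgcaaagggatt
Sucnr1, chr3:60081769-60081868, plus strand: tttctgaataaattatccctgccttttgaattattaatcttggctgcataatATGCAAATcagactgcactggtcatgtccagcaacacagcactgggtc
Capitals mark the octamer ATGCAAAT, the sequence that POU factors are known to bind, searched on both strands (ATTTGCAT on the other). It was found in 1 of the 8 windows of these genes, that of Sucnr1, with its first base 48 bases before the start, and in 1.74% of all 32851 windows. A match describes the sequence and is not a binding site shown by these data, and windows without these letters say nothing about the factor.

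On the length-scaled measure (TPM, transcript abundance scaled by length and library size), the order of the genes over the 20 mice was Trpm5, Avil, Dclk1, Il17rb, Pou2f3, Sucnr1, Gnat3, Gfi1b and Il25. Mean levels ran from 8.34 ± 3.61 TPM (SD, n = 20) for Trpm5 to 0.117 ± 0.083 TPM (SD, n = 20) for Il25. Trpm5 stood above Avil in 20 of 20 mice although their means differed by less than either SD. Dclk1 stood above Il17rb in 15 of 20 mice and Pou2f3 above Sucnr1 in 16 of 20. The order of Sucnr1 over Gnat3, Gnat3 over Gfi1b and Gfi1b over Il25 held in 19 of 20 mice each. None of these pairs of neighbours held its order in every mouse. The sum of the 9 genes ran from 44.0 to 61.5 CPM in CD, from 36.2 to 47.9 CPM in TDD, from 62.8 to 121 CPM in CD+ABX and from 52.0 to 83.6 CPM in TDD+ABX. Every ABX-treated mouse on CD lay above every SPF mouse on CD, and the same was true on TDD, where the lowest ABX value was 52.0 CPM and the highest SPF value 47.9 CPM.

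**Figure D1:**
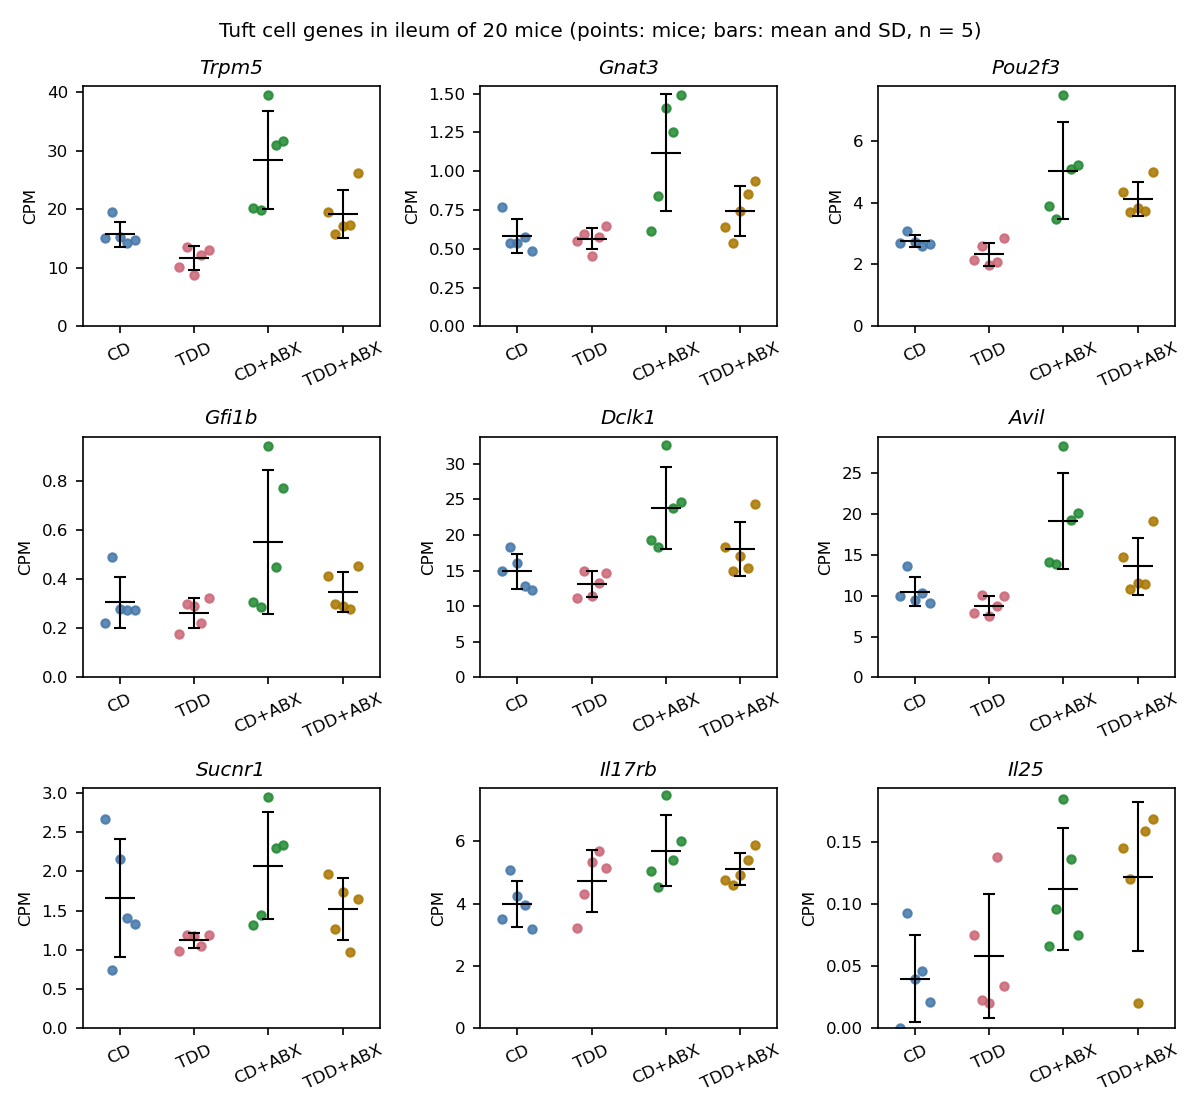
CPM of each of the 9 tuft cell genes (y axis, linear, from 0) in the 4 groups (x axis), with 1 point per mouse and the mean and SD of 5 mice as black bars. The 5 CD+ABX mice lie above all CD mice for Trpm5, Pou2f3, Dclk1 and Avil, while the groups overlap for the other genes.

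The first question was how these genes differed between ABX-treated and untreated mice on CD. All 8 tested members had a positive log2 fold change, with a median of 0.85 against 0.00 over all genes tested, and 6 of them, Pou2f3, Trpm5, Avil, Dclk1, Gnat3 and Il17rb, were higher in CD+ABX than in CD at q under 0.05 (edgeR quasi-likelihood test, Benjamini-Hochberg adjustment over all tested genes). Over all tested genes, 5.26% passed in this direction. None of the 8 reached the 2-fold limit that the study's call rule adds (2.25% of all tested genes in either direction passed both limits), the nearest being Gnat3 at 1.94-fold.

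Trpm5 was at 15.0, 19.6, 15.2, 14.2 and 14.7 CPM in the CD mice and at 20.2, 19.9, 39.5, 31.0 and 31.6 CPM in the CD+ABX mice. The groups did not overlap, but the lowest CD+ABX mouse was only just above the highest CD mouse. The log2 fold change was 0.86 ± 0.18 (SE, 1.81-fold, q = 0.00544). Gnat3, which starts the same cascade, was at 0.771, 0.535, 0.539, 0.574 and 0.484 CPM in CD and at 0.617, 0.839, 1.41, 1.25 and 1.49 CPM in CD+ABX. One CD+ABX mouse lay inside the CD range and 4 lay above it. Its log2 fold change was 0.96 ± 0.23 (SE, q = 0.00924).

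Pou2f3 was at 2.70, 3.09, 2.73, 2.59 and 2.67 CPM in CD and at 3.88, 3.48, 7.49, 5.08 and 5.21 CPM in CD+ABX. All CD+ABX mice were above all CD mice, and the spread was 1.57 CPM (SD) in CD+ABX against 0.195 CPM in CD. The log2 fold change was 0.87 ± 0.17 (SE, 1.82-fold, q = 0.00286). Gfi1b, the other transcription factor, was at 0.220 to 0.489 CPM in CD and 0.288 to 0.942 CPM in CD+ABX, with 2 of 5 CD+ABX mice above the CD range. Its log2 fold change of 0.84 ± 0.32 (SE) was close to that of Pou2f3 but did not pass (q = 0.0926), at 7 to 46 counts per mouse over the series, and was 0.06 on log2(TPM + 1) and 0.15 on log2(TPM + 0.1).

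Dclk1 was at 15.0, 18.3, 16.0, 12.8 and 12.3 CPM in CD and at 19.3, 18.3, 32.7, 23.8 and 24.7 CPM in CD+ABX. The groups were separated, but the closest mice of the 2 groups had the same printed value. The log2 fold change was 0.68 ± 0.16 (SE, 1.60-fold, q = 0.00945). Avil was at 9.92, 13.6, 9.42, 10.3 and 9.12 CPM in CD and at 14.1, 13.9, 28.4, 19.3 and 20.1 CPM in CD+ABX. Again all 5 treated mice lay above all 5 untreated mice, and the log2 fold change was 0.87 ± 0.19 (SE, 1.83-fold, q = 0.00601). In all, 4 of the 8 tested members (Trpm5, Pou2f3, Dclk1 and Avil) had CD+ABX mice above all CD mice, as did 3.86% of all tested genes.

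The receptors had the smallest values. Il17rb was at 3.5, 5.09, 4.23, 3.95 and 3.18 CPM in CD and at 5.05, 4.53, 7.49, 5.41 and 6.02 CPM in CD+ABX. The groups overlapped, and its log2 fold change of 0.52 ± 0.16 (SE, 1.43-fold) passed narrowly (q = 0.0412). When single mice were dropped in turn, the call for Il17rb was lost in 7 of 20 fits (CD mice 1, 3, 4 and 5 and CD+ABX mice 3, 4 and 5), with q from 0.0138 to 0.123 over all 20, and it passed in 6 of 11 other processing settings (q from 0.0119 to 0.0742). Sucnr1 was at 0.744 to 2.67 CPM in CD and 1.32 to 2.95 CPM in CD+ABX, with a log2 fold change of 0.32 ± 0.28 (SE, q = 0.52). Its CD values were the most scattered of the tested members relative to their mean. Il25 gave 0, 4, 2, 2 and 1 counts in CD and 3, 4, 9, 7 and 4 counts in CD+ABX. In a fit with no filter its log2 fold change was 1.41 ± 0.62 (SE, q = 0.216), which at counts this low is not a detectable difference.

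CD+ABX mouse 3 was the highest of its group for 7 of the 8 tested members, and its summed level of the 9 genes was 121 CPM, against 62.8 to 92.3 CPM in the other 4 mice. Without that mouse the log2 fold change was 0.71 for Trpm5, 0.68 for Pou2f3, 0.69 for Avil, 0.54 for Dclk1 and 0.87 for Gnat3, each still with q under 0.05, and 0.40 for Il17rb (q = 0.123).

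The same question was asked on TDD. All 8 tested members again had a positive log2 fold change, with a median of 0.45 against -0.03 over all genes tested, and 3 of them, Pou2f3, Trpm5 and Avil, were higher in TDD+ABX than in TDD at q under 0.05. Over all tested genes, 7.14% passed in this direction. None reached the 2-fold limit, where 1.63% of all tested genes were called. The 3 genes that passed were also the 3 with no overlap between groups, as were 5.97% of all tested genes.

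Pou2f3 was at 2.13, 2.61, 1.97, 2.09 and 2.84 CPM in TDD and at 4.34, 3.68, 3.82, 3.72 and 4.98 CPM in TDD+ABX. The gap between the groups was 0.82 ± 0.17 on the log2 scale (SE, 1.76-fold, q = 0.00473), and Pou2f3 passed in all 20 fits with a single mouse dropped. Trpm5 was at 10.2, 13.6, 8.72, 12.2 and 13.1 CPM in TDD and at 19.6, 15.8, 17.2, 17.3 and 26.1 CPM in TDD+ABX, a log2 fold change of 0.73 ± 0.18 (SE, q = 0.0140). It too passed in all 20 such fits. Avil was at 7.83, 10.1, 7.48, 8.70 and 9.91 CPM in TDD and at 14.8, 10.8, 11.6, 11.4 and 19.2 CPM in TDD+ABX. Its log2 fold change was 0.62 ± 0.19 (SE, q = 0.0341), and the call was lost in 5 of the 20 fits (TDD mice 1, 3 and 4 and TDD+ABX mice 1 and 5, q up to 0.0758).

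The other members did not pass on TDD. Dclk1 was at 11.1, 15.0, 11.4, 13.3 and 14.7 CPM in TDD and at 18.3, 14.9, 17.1, 15.3 and 24.3 CPM in TDD+ABX, with a log2 fold change of 0.45 ± 0.16 (SE, q = 0.0627). Here 4 of 5 TDD+ABX mice were above every TDD mouse, and Dclk1 passed in 6 of 11 other processing settings (q from 0.0227 to 0.0918) and without CD mouse 2, CD+ABX mouse 3 or TDD+ABX mouse 4. Gnat3 had a log2 fold change of 0.39 ± 0.23 (SE, q = 0.261) and Gfi1b of 0.39 ± 0.33 (SE, q = 0.456). Sucnr1 had 0.44 ± 0.29 (SE, q = 0.315), and Il17rb had 0.11 ± 0.16 (SE, q = 0.673). Il25 gave 3, 1, 1, 5 and 2 counts in TDD and 7, 6, 1, 8 and 7 counts in TDD+ABX. TDD+ABX mouse 5 was the highest of its group for 7 of the 8 tested members.

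**Figure D2:**
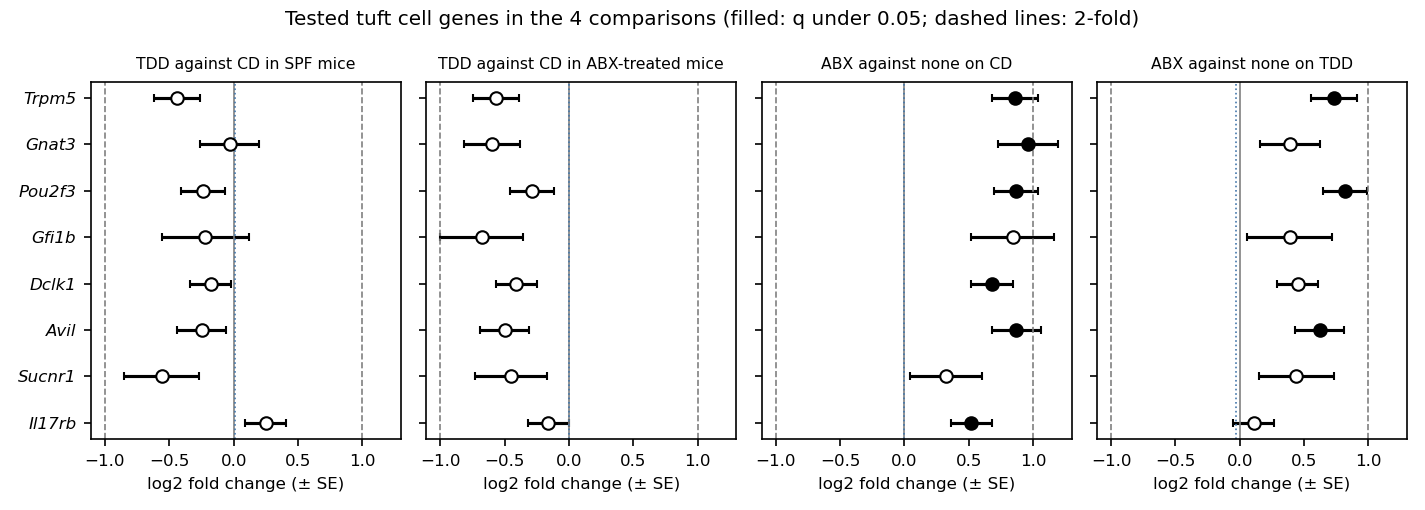
Log2 fold change (x axis, ± SE) of the 8 tested tuft cell genes (y axis) in the 4 comparisons, with filled points at q under 0.05, dashed lines at 2-fold and a dotted line at the median of all tested genes. Filled points appear only in the ABX panels, 6 on CD and 3 on TDD, and no point crosses a 2-fold line.

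The second question was what tryptophan deficiency did to the same genes. In SPF mice none of the 8 tested members passed at q under 0.05 (lowest q = 0.119), where 14.4% of all tested genes passed in either direction and 1.83% also reached 2-fold. The median log2 fold change of the members was -0.23 against 0.01 over all genes, with 7 negative values and 1 positive. Trpm5 had the lowest p of the set, with a log2 fold change of -0.44 ± 0.18 (SE, unadjusted p = 0.0273 from the edgeR fit, q = 0.119). Its 5 TDD mice, at 8.72 to 13.6 CPM, all lay below the 5 CD mice, at 14.2 to 19.6 CPM. It was the only member with separated groups, while 4.90% of all tested genes were separated in that direction, and the only member with an unadjusted p under 0.05, which 14.4% of all tested genes had with a lower level in TDD.

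Of the remaining members, Sucnr1 had the largest log2 fold change in size, -0.56 ± 0.29 (SE, q = 0.206). Its TDD values were tightly grouped at 0.979 to 1.19 CPM and sat inside the CD range of 0.744 to 2.67 CPM. Without CD mouse 2, whose Sucnr1 was the lowest of that group, the value was -0.76 with q = 0.0472, the only fit in which a member passed a diet comparison. Pou2f3 had -0.24 ± 0.17 (SE), Avil -0.25 ± 0.19 (SE), Gfi1b -0.22 ± 0.34 (SE), Dclk1 -0.18 ± 0.16 (SE) and Gnat3 -0.03 ± 0.23 (SE). Il17rb was the one gene with a positive value, 0.25 ± 0.16 (SE, q = 0.338), with 3 of 5 TDD mice above the CD range. Il25 had 0.40 ± 0.69 (SE, q = 0.814) in the fit with no filter.

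In ABX-treated mice all 8 tested members had a negative log2 fold change for TDD against CD, with a median of -0.48 against 0.00 over all genes. None passed at q under 0.05 (lowest q = 0.127), where 1.64% of all tested genes passed in either direction and 0.307% also reached 2-fold. Among the 8, 5 genes, Trpm5, Gnat3, Avil, Dclk1 and Gfi1b, had an unadjusted p under 0.05 with a lower level, as did 7.57% of all tested genes. These 5 are not independent, because members followed each other across mice, as described below. The largest of these in size were Gfi1b at -0.68 ± 0.32 (SE, q = 0.328, but -0.05 and -0.08 on log2(TPM + 1) and log2(TPM + 0.1)), Gnat3 at -0.60 ± 0.22 (SE, q = 0.200) and Trpm5 at -0.57 ± 0.18 (SE, q = 0.127). Avil had -0.50 ± 0.19 (SE, q = 0.206) and Dclk1 -0.41 ± 0.16 (SE, q = 0.230). Sucnr1 had -0.45 ± 0.28 (SE, q = 0.486), Pou2f3 -0.29 ± 0.17 (SE, q = 0.44) and Il17rb -0.16 ± 0.16 (SE, q = 0.701). Il25 had 0.12 ± 0.54 (SE) in the fit with no filter. The TDD+ABX mice overlapped the CD+ABX mice for every member, whereas 2.43% of all tested genes were separated with TDD lower. This comparison shares its CD+ABX mice with that of ABX on CD, including CD+ABX mouse 3. Without that mouse the values were closer to 0, at -0.42 for Trpm5, -0.32 for Avil and -0.27 for Dclk1.

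The interaction asks whether the response to ABX differed between the diets. No member passed (lowest q = 0.646), and 7 of 8 had a negative value, with a median of -0.24 against -0.01 over all genes. The lowest unadjusted p values were 0.0909 for Il17rb (-0.40 ± 0.23, SE) and 0.0929 for Gnat3 (-0.57 ± 0.32, SE), both from the edgeR fit. The other values were -0.46 ± 0.47 for Gfi1b, -0.25 ± 0.27 for Avil, -0.23 ± 0.23 for Dclk1, -0.13 ± 0.26 for Trpm5, -0.05 ± 0.24 for Pou2f3 and 0.11 ± 0.40 for Sucnr1 (SE), with -0.28 ± 0.85 for Il25 in the fit with no filter. Over all tested genes 0.0368% passed at q under 0.05 and 0.0245% also reached 2-fold. The 6 members that passed on CD and the 3 that passed on TDD are therefore not shown to differ in response between the diets.

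The members followed each other across mice to different degrees. Over the 20 mice the Pearson correlation of log2(CPM + 0.5) between 2 tested members ran from 0.223 to 0.977 over 28 pairs, with a median of 0.789, and from 0.095 to 0.953 (median 0.661) once group means were removed. The points are 20 libraries that share the tissue piece and depth for every gene, and the values are given as a description. Counts of members that passed or shared a sign in the comparisons above are thus not counts of independent genes. Trpm5 and Avil had the highest value, 0.977 (0.953 within groups). Sucnr1 and Il17rb had the lowest, 0.223 (0.095 within groups), and Il17rb and Sucnr1 were also the members with the lowest median correlation with the others, 0.644 and 0.602.

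The genes outside the set that were most like it were found by the correlation of each gene with the mean standardised level of the 8 tested members, among 14042 genes with a mean of at least 1 CPM. Among the 10 closest were Rgs13 (r = 0.961), Strip2 (0.960), Siglecf (0.958), Sh2d7 (0.957), Sh2d6 (0.949), Bmx (0.940), Rgs22 (0.939), Alox5 (0.938) and Alox5ap (0.931). Of the 10, 9 stand on the other lists of tuft cell genes described next, Strip2 being the exception. Those lists were chosen with earlier results of these data known, so this overlap is given as a description. Once group means had been removed, 7 of the 10 were also among the 10 closest. Rgs13, a regulator of G protein signalling, was at 5.84 to 8.72 CPM in CD, 4.37 to 5.84 CPM in TDD, 8.30 to 18.2 CPM in CD+ABX and 6.29 to 12.9 CPM in TDD+ABX. Its highest mouse, as for most members, was CD+ABX mouse 3. Strip2 had group means of 6.60 CPM in CD, 5.82 in TDD, 12.3 in CD+ABX and 9.19 in TDD+ABX, and was higher under ABX on both diets (log2 fold change 0.90, q = 0.00786 on CD, and 0.66, q = 0.0389 on TDD).

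**Figure D3:**
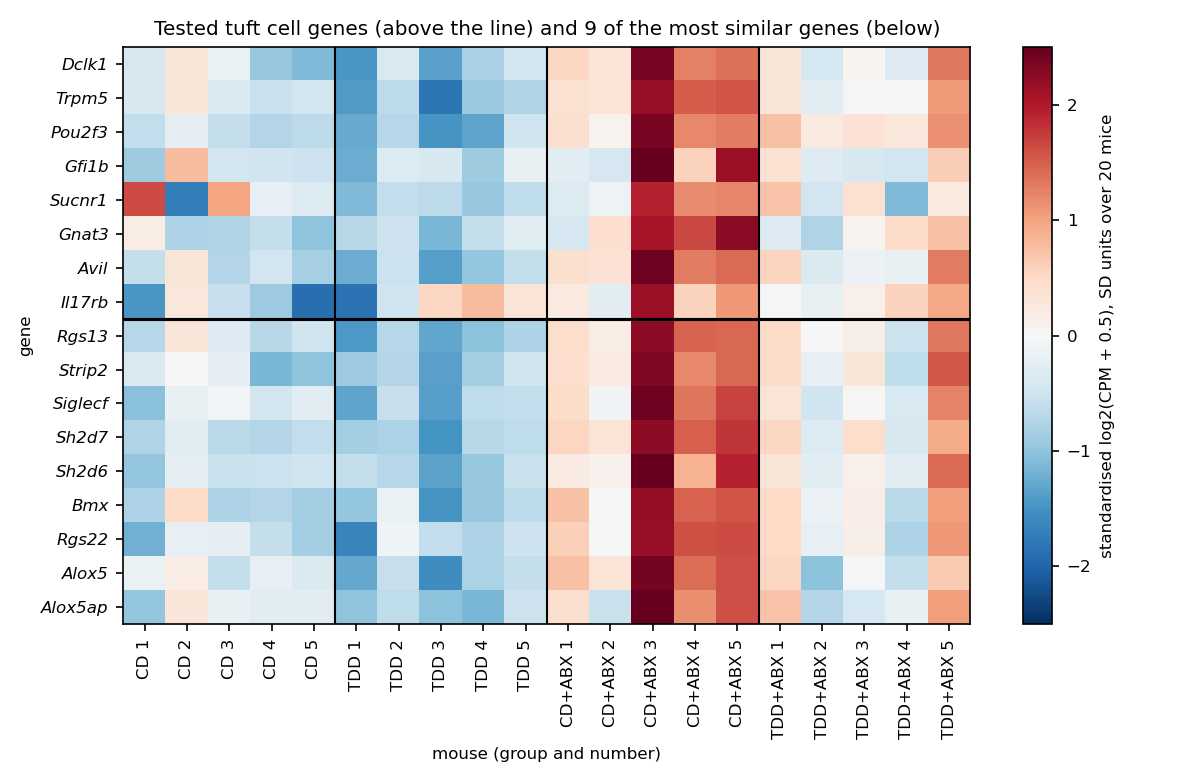
Standardised log2(CPM + 0.5) of the 8 tested tuft cell genes (above the line) and 9 of the genes most like them (below) in each of 20 mice (x axis, grouped), in SD units over the 20 mice. CD+ABX mouse 3 has the highest column, and CD+ABX mice 4 and 5 and TDD+ABX mouse 5 follow. TDD mice 1 and 3 have the lowest columns for most genes. Sucnr1 and Il17rb depart most from the common pattern.

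The 3 further lists hold 55 other genes known for tuft cells, of which 50 were tested. In CD+ABX against CD, 13 of the 50 (26.0%) were higher at q under 0.05, against 5.26% of all tested genes, and 2 were lower. Their median log2 fold change was 0.14. On TDD 3 of 50 (6.0%) were higher, no more than the 7.14% of all tested genes, and 1 was lower (median 0.07). The diet comparisons gave 1 higher and 2 lower in SPF mice, where 14.4% of all tested genes passed, and 0 higher and 1 lower in ABX-treated mice, where 1.64% passed. Several of these genes are also expressed outside tuft cells, by leukocytes or by the whole epithelium. The lists were chosen with earlier results of these data known. Several of the 13, such as Rgs13, Sh2d7 and Alox5, are also among the closest genes above, so the 2 counts are not independent.

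The taste signalling list runs from receptor subunits to calcium release. Of its 14 genes 9 were tested, and 1 passed in each ABX comparison, Rgs13, with a log2 fold change of 0.90 ± 0.20 (SE, q = 0.00686) on CD and 0.79 ± 0.20 (SE, q = 0.0154) on TDD. The list median was 0.12 on CD and 0.07 on TDD. Plcb2, the phospholipase between gustducin and calcium release, was at 12.2 to 15.1 CPM in CD and 11.1 to 19.0 CPM in CD+ABX and did not pass in any comparison (0.12 ± 0.17 on CD, q = 0.737). Gng13, the gustducin gamma subunit, did not pass the filter and lay at 0.0233 to 0.232 CPM in CD and 0.144 to 0.321 CPM in CD+ABX. Gnai2, a widely expressed inhibitory G protein subunit, was higher in TDD than in CD in SPF mice (0.22 ± 0.07, SE, q = 0.0374).

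The lipid mediator list covers leukotriene, prostaglandin and acetylcholine production, and all 8 of its genes were tested. Alox5, the 5-lipoxygenase that starts leukotriene synthesis, was at 2.92, 3.42, 2.41, 2.89 and 2.67 CPM in CD and at 4.30, 3.62, 8.46, 5.66 and 6.22 CPM in CD+ABX. The groups did not overlap, and the log2 fold change was 0.98 ± 0.22 (SE, q = 0.00758). Alox5ap, which presents the substrate to this enzyme, also passed on CD (0.60 ± 0.19, SE, q = 0.0456). Chat, the acetylcholine-synthesising enzyme that enteric neurons also hold, had 0.81 ± 0.29 (SE) without passing (q = 0.0747), and the list median was -0.06. None of the 8 passed on TDD. Pla2g4a, a phospholipase A2 of broad expression, was lower in TDD than in CD in SPF mice (-0.43 ± 0.12, SE, q = 0.0189).

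The list of cytoskeletal, adaptor, surface and transcription factor genes was the longest, with 33 genes, all tested. On CD 10 of them were higher under ABX, among them Sh2d6, Sh2d7, Matk, Bmx, Siglecf, Kctd12, Hmx3, Rgs22 and 1810046K07Rik, by 0.43 (Kctd12) to 1.49 (Rgs22), and 3 of these also reached 2-fold. These were Rgs22 (1.49 ± 0.32, SE, q = 0.00511), Sh2d7 (1.13 ± 0.18, SE, q = 0.000821) and Siglecf (1.07 ± 0.25, SE, q = 0.00917). Sh2d7, an SH2 domain adaptor, was at 5.87 to 7.07 CPM in CD and 9.14 to 18.9 CPM in CD+ABX, with no overlap. Siglecf, a sialic acid-binding lectin that eosinophils also carry, was at 3.06 to 4.79 CPM in CD and 4.72 to 13.8 CPM in CD+ABX. On the same list Ptprc, the pan-leukocyte phosphatase CD45, and Rac2, a GTPase of blood cells, were lower under ABX on CD (-0.93 ± 0.24, SE, q = 0.0179, and -1.01 ± 0.30, SE, q = 0.0361). On TDD Sh2d7 (0.66 ± 0.18, SE, q = 0.0205) and 1810046K07Rik (0.95 ± 0.18, SE, q = 0.00236) were higher and Ptprc was lower (-0.76 ± 0.24, SE, q = 0.0410). Nrep was lower in TDD on both backgrounds, at -0.86 ± 0.13 (SE, q = 0.00019) in SPF and -0.56 ± 0.12 (SE, q = 0.0265) in ABX-treated mice.

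**Figure D4:**
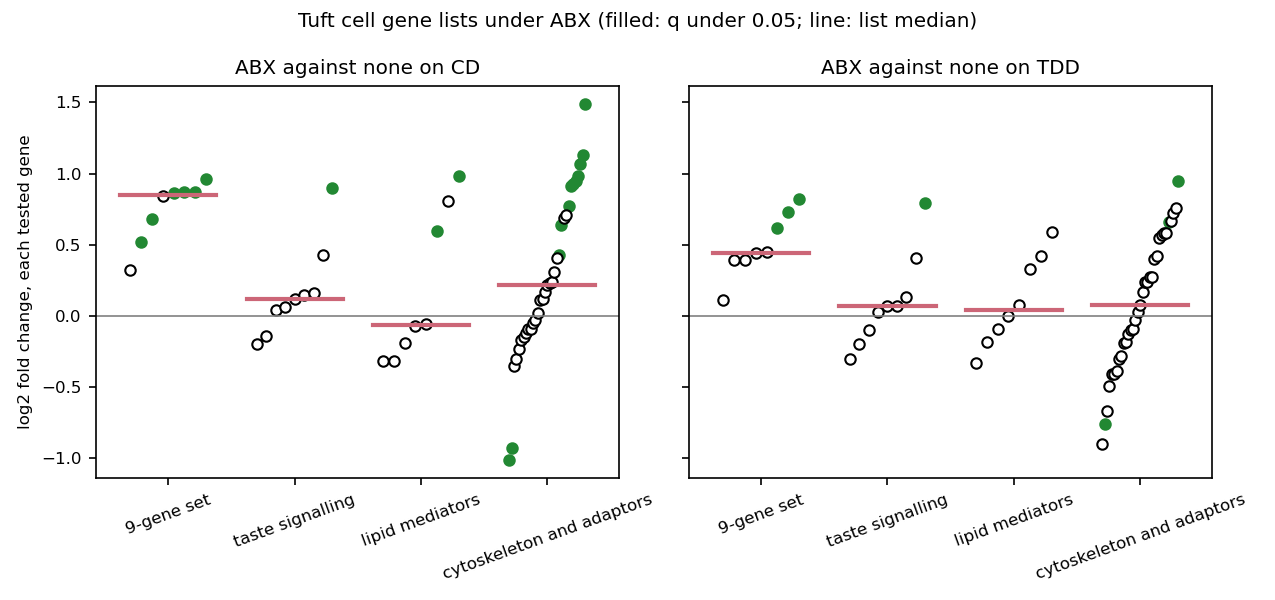
Log2 fold change (y axis) of every tested gene of the 9-gene set and of the 3 other tuft cell lists (x axis) for ABX against none on CD (left) and on TDD (right), with filled points at q under 0.05 and a line at each list's median. On CD the median is 0.85 for the 9-gene set and 0.12, -0.06 and 0.22 for the other lists, in which most points are open and lie on both sides of 0.

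The type 2 circuit on which tuft cells act was sparsely measured. Of its 19 genes 13 were tested, and Il13, Il4, Il5, Il9, Il13ra2 and Ptgdr2 did not pass the filter. Il13, the cytokine that expands tuft cells, was at 0 to 0.0931 CPM over the 20 mice. None of the 13 was higher under ABX on CD, where Il17ra, the second IL-25 receptor subunit, and Il2rg, the common cytokine receptor gamma chain, were lower (-0.23 ± 0.06, SE, q = 0.0177, and -0.94 ± 0.28, SE, q = 0.0360). On TDD Il1rl1, the IL-33 receptor, was higher (1.39 ± 0.44, SE, q = 0.0407), and Il4ra, the receptor chain for IL-4 and IL-13, and Il2rg were lower (-0.37 ± 0.11, SE, q = 0.0239, and -1.01 ± 0.28, SE, q = 0.0234). Nmur1, a neuropeptide receptor of group 2 innate lymphoid cells, was lower in TDD than in CD in SPF mice (-0.64 ± 0.20, SE, q = 0.0337).

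Other cell types were followed beside the members. Epcam, the pan-epithelial adhesion molecule, had a log2 fold change of -0.01 ± 0.14 (SE) under ABX on either diet, and of the 5 epithelial genes Krt8 was higher (0.35 ± 0.11, SE, q = 0.0355 on CD, and 0.49 ± 0.11, SE, q = 0.00609 on TDD). Goblet cells, the other product of the type 2 circuit, showed no gene that passed on CD among 7 tested (median -0.19), and Muc2, their main mucin, had -0.16 ± 0.15 (SE, q = 0.547). Clca1, a secreted goblet cell protein, was lower in TDD than in CD in SPF mice (-0.98 ± 0.16, SE, q = 0.000619) and higher under ABX on TDD (0.65 ± 0.16, SE, q = 0.0124). Of 10 enteroendocrine genes none was higher under ABX and Cck was lower on CD (-0.79 ± 0.13, SE, q = 0.000852), with Chga at 0.13 ± 0.14 (SE). In SPF mice Neurod1 was higher and Gcg lower in TDD (0.44 ± 0.11, SE, q = 0.0154, and -0.56 ± 0.18, SE, q = 0.0410).

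Cell types that share members with tuft cells were checked in the same way. The 8 enteric neuron genes summed to 20.7 to 69.6 CPM in CD and 31.5 to 49.6 CPM in CD+ABX, with none passing on CD, and Ret was lower under ABX on TDD (-0.51 ± 0.16, SE, q = 0.0434). The macrophage list, whose cells can hold Sucnr1 RNA, summed to 156 to 197 CPM in CD and 108 to 129 CPM in CD+ABX. Of its 6 genes, 5 (Adgre1, Csf1r, Cd68, C1qa and C1qb) were lower under ABX on CD and lower in TDD among SPF mice, and Csf1r and C1qa were lower under ABX on TDD. Of the blood and megakaryocyte list, whose cells use Gfi1b, Pf4 and Itga2b were lower under ABX on CD (-0.81 ± 0.21, SE, q = 0.0169, and -0.54 ± 0.17, SE, q = 0.0399), Hba-a1 and Hbb-bs were lower in TDD among SPF mice (-0.94 ± 0.24, SE, q = 0.0125, and -1.03 ± 0.25, SE, q = 0.00901), and Hbb-bs was higher under ABX on TDD (0.97 ± 0.25, SE, q = 0.0147).

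Other parts of the tissue also moved with ABX. The 6 B cell follicle genes summed to 5.18 to 94.7 CPM in CD, 4.32 to 143 CPM in TDD, 3.57 to 8.03 CPM in CD+ABX and 3.56 to 100.3 CPM in TDD+ABX, without a gene that passed. Of the 5 genes of follicle-associated M cells, Gp2, Tnfaip2 and Tnfrsf11a were lower under ABX on CD (-1.90 ± 0.55, -0.54 ± 0.12 and -0.46 ± 0.08, SE), Tnfaip2 was lower under ABX on TDD (-0.71 ± 0.12, SE), and Tnfrsf11a was lower in TDD on both backgrounds (-0.79 ± 0.08 in SPF and -0.41 ± 0.08 in ABX-treated mice, SE). No smooth muscle gene passed in any comparison, with summed levels of 472 to 2508 CPM in CD and 978.5 to 2119 CPM in CD+ABX. Of the enterocyte list, Fabp2, Fabp6 and Slc10a2 were higher and Apoa4 was lower under ABX on both diets, Fabp2 by 1.20 ± 0.18 (SE) on CD and Apoa4 by -1.61 ± 0.35 (SE). The part of these shifts in the members' values was not tested.

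Transcript estimates show which forms of the members were measured. Gnat3 and Il25 each have 1 annotated transcript. The main coding transcript of Pou2f3 (chr9:43123939-43205755, minus strand) held 89.8% of the Pou2f3 TPM, that of Sucnr1 held 87.9% and that of Avil held 74.0%. The Pou2f3 transcript was at 1.08 to 1.55 TPM in CD, 0.920 to 1.30 TPM in TDD, 1.91 to 3.87 TPM in CD+ABX and 1.70 to 2.67 TPM in TDD+ABX, so its groups were separated by ABX on both diets, as those of the gene were. Trpm5 was split more widely. Its longest coding form (chr7:143071789-143094642, minus strand) held 45.2% and ran from 2.73 to 4.19 TPM in CD and 3.78 to 8.07 TPM in CD+ABX. Shorter coding forms held 15.3% and 4.21%, and 2 forms annotated as retaining an intron held 13.5% and 13.4%. For Il17rb the main coding form held 34.0% and another coding form 12.7%. A short form annotated as retaining an intron (chr14:29996920-29998459, minus strand) held 27.6%. Forms annotated for nonsense-mediated decay, a breakdown of the RNA, held 11.1% and 10.9%, and a further non-coding form 3.66%. Much of the Il17rb TPM was thus assigned to transcripts not annotated as coding. For Gfi1b 2 coding forms held 32.2% and 26.9% and a non-coding form held 26.8%, at means of only 0.149, 0.125 and 0.125 TPM.

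Dclk1 has annotated coding transcripts from a distal start and from an internal start, the 2 windows printed above. The 4 coding transcripts of the distal start summed to 1.96, 2.33, 1.90, 1.38 and 1.51 TPM in CD and to 2.34, 2.28, 3.89, 3.24 and 2.62 TPM in CD+ABX. The 7 of the internal start summed to 1.33, 1.73, 1.37, 1.13 and 1.01 TPM in CD and to 1.60, 1.44, 3.03, 2.03 and 2.06 TPM in CD+ABX. Both classes overlapped between the groups by a single CD mouse, mouse 2, and the distal class held 45.0 to 56.4% of Dclk1 TPM in CD and 43.3 to 56.5% in CD+ABX. In TDD the distal class ran from 0.811 to 1.87 TPM and the internal class from 0.702 to 1.79 TPM, and in TDD+ABX they ran from 1.73 to 3.06 TPM and from 1.25 to 2.12 TPM. The distal share was 30.6 to 69.5% in TDD and 45.6 to 62.6% in TDD+ABX. Non-coding transcripts held 1.51 to 19.2% in CD, 2.71 to 26.7% in TDD, 8.04 to 29.4% in CD+ABX and 10.9 to 18.4% in TDD+ABX. The internal start therefore did not hold all of the rest. Forms of the 2 classes share part of their sequence, to different degrees, so the split between the classes is an estimate.

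**Figure D5:**
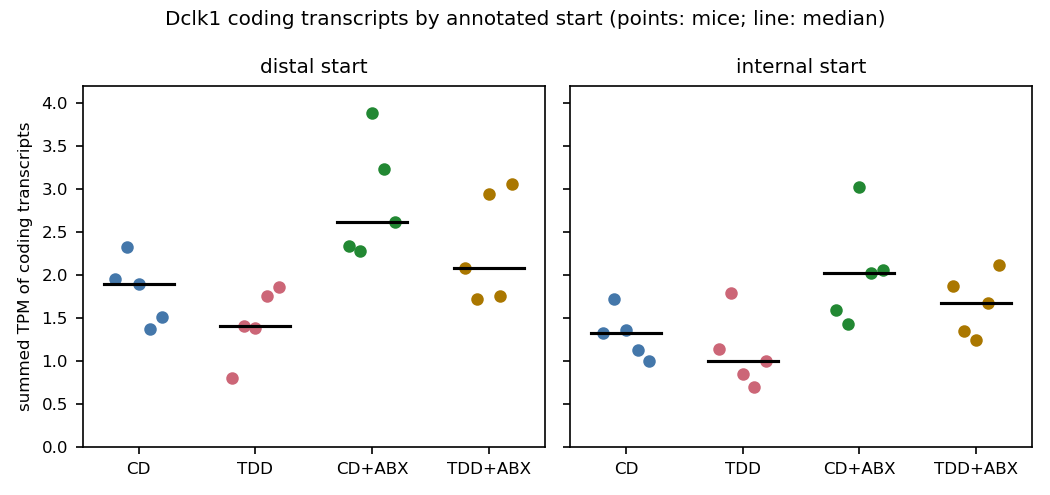
Summed TPM (y axis, linear, from 0) of the Dclk1 coding transcripts that begin at the distal start (left) and at the internal start (right) in the 4 groups (x axis), with 1 point per mouse and the median as a line. Medians are 1.90 and 2.62 TPM in CD and CD+ABX for the distal start and 1.33 and 2.03 TPM for the internal start.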

How the data were processed

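Per the labels and the study's methods, poly-A RNA of ileum from 20 mice was sequenced, and the authors used kallisto 0.44.0 with the GRCm38 transcriptome. The authors deposited a gene table of estimated counts for all mice and, for each mouse, transcript estimated counts and TPM (abundance scaled by transcript length and library size). Estimated counts were rounded, and genes reaching 0.5 CPM in 1 mouse or more were kept. The level of 0.5 CPM is the study's, which gives no number of mice. These genes were fitted in edgeR 4.0.16 (R 4.3.3, TMM scaling, robust quasi-likelihood test, all 4 groups in a single fit, Benjamini-Hochberg adjustment over 16306 genes). The study's call rule (q under 0.05, at least 2-fold) and q alone were both counted. CPM are on the TMM scale. TPM were summed over transcripts per gene. Alternatives used DESeq2 1.42.0 and limma 3.58.1 (which also gave voom). The main edgeR fit was tested on simulated counts, for ABX against none on CD only. The other fits and comparisons were not tested in this way. Replicates are separate mice, and no pair of mice in a group agreed within sampling noise (chi-square per gene of 19.3 or more over 40 pairs).

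The members and lists were chosen with earlier results of these data known. All 9 genes are named in every comparison, as is every gene of the other lists with q under 0.05 in any comparison, 8 defining markers (Il13, Alox5, Plcb2, Gng13, Chat, Muc2, Chga, Epcam) whatever their result, the 10 genes most like the members (1 gene of these lists is not reported here), and member transcripts of at least 0.1 mean TPM, given by their main forms. Promoters are those of RefSeq. No column of the files held the authors' own comparisons.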

Additional observations from a re-analysis of the deposited data

Results flagged for a closer look

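CD mouse 2 stood apart from the other 4 CD mice for 4 of the 9 genes, with a gap to the nearest mouse of more than 0.71 of the group's range (Dixon's limit for 5 samples). It was at 19.6 CPM for Trpm5, against 14.2 to 15.2 CPM in the others, and at 3.09 CPM for Pou2f3, against 2.59 to 2.73 CPM. It was also at 0.489 CPM for Gfi1b, against 0.220 to 0.279 CPM, and at 13.6 CPM for Avil, against 9.12 to 10.3 CPM. In all, 4 of 36 gene and group combinations were marked in this way, where chance marks about 1 in 20, and the 4 are 1 mouse and not independent. The same mouse had the highest summed smooth muscle (2508 CPM), enteric neuron (69.6 CPM) and blood (36.6 CPM) genes of the CD group and the lowest epithelial (5756 CPM) and enterocyte (12082 CPM) genes. The part of these values in its tuft cell gene levels was not tested. Without it, 7 members passed at q under 0.05 for ABX on CD, Gfi1b being added at 1.08 (q = 0.0366).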

How the results depend on the processing

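The number of members called with the 2-fold limit was 0 in every comparison under RLE and upper-quartile scaling, both other filters, DESeq2, limma-voom, limma on log2(TPM + 1) and log2(TPM + 0.1), fits of only the 2 groups compared (which give no interaction), the replicate block and, added after seeing the data, edgeR without robust dispersion. Dropping the fold limit gave 6 for ABX on CD and 3 for ABX on TDD. With no fold limit these settings gave 5 to 6 for ABX on CD (Il17rb being lost), 2 to 4 for ABX on TDD and 0 for diet and interaction. With each mouse dropped in turn, 0 to 2 members were called for ABX on CD (Gnat3 or Gfi1b, without CD mouse 1 or 2 or CD+ABX mouse 1 or 2), 5 to 7 members with q under 0.05 for ABX on CD and 2 to 4 on TDD, and 0 to 1 for TDD in SPF mice. Same-numbered mice did not deviate together on average (mean correlation -0.079 to 0.063 per number), so no pairing by number was seen. Such a check cannot exclude a weak shared block. The replicate block gave 6 on CD and 2 on TDD, where Avil was lost.

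Signs changed where values were near 0. Gnat3 for TDD in SPF mice went from -0.03 to 0.09 without CD mouse 1 and 0.03 without TDD mouse 3 (-0.10 to 0.09 over all dropped mice). The interaction changed sign for Trpm5 (0.03) and Pou2f3 (0.15) without CD+ABX mouse 3, for Pou2f3 without TDD mouse 5 (0.03), for Pou2f3 (0.04 and 0.11) and Gfi1b (0.26 and 0.79) on log2(TPM + 1) and log2(TPM + 0.1), and for Sucnr1 under limma-voom (-0.03) and without CD mouse 1 (-0.12), CD mouse 3 (0.00) or CD+ABX mouse 1 (0.00). With mice dropped in turn the interaction ran from -0.25 to 0.03 for Trpm5, -0.15 to 0.15 for Pou2f3 and -0.12 to 0.32 for Sucnr1. The cause was not tested. Depth limits Il25 and Gfi1b most, at 0 to 9 and 7 to 46 counts per mouse.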
